A study of Mus musculus with 52 samples.

Results

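The genes described here encode the proteins of tight and gap junctions. They are the rows of the count table whose symbol is a claudin (Cldn followed by a number), a connexin (Gja, Gjb, Gjc, Gjd or Gje followed by a number), a ZO protein (Tjp followed by a number), Ocln, F11r, Cgn, Marveld2 or Marveld3. This rule took 51 of the 55291 rows: 23 claudins, 20 connexins and 8 others. The rule used the names alone and no measured value. Of the 51 genes, 41 passed the filter on low counts and entered the tests, and 21 of these had a mean of 5 CPM (counts scaled to a common library total) or more in some group. The other 10 did not pass and have no test: Cldn13, Cldn16, Cldn17, Cldn22, Cldn24, Gja10, Gjc3, Gjd2, Gjd4 and Gje1.

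The study built an embryo model from mouse totipotent-like cells and sequenced bulk messenger RNA of 52 libraries in 25 treatment groups. S1 cells were EPSCs of the line mc6-1/Mu-mClover3-10# kept for 2 days in totipotency medium, and P25 and P38 were the same line held in that medium for 25 and 38 passages. In further arms EPSCs received CHIR-99021 alone, or CHIR-99021 with CD1530, with PD0325901 or with Elvitegravir, for 2 days each. Their reference, EPSCs (extended pluripotent stem cells), grew in LCDM medium. In mESC-S1 the mouse ES line 2i-0606-td-ES had the totipotency medium for 2 days, and its reference stayed in 2i/L medium. S2 was made of aggregated S1 cells after 1 day in 4C-64C medium, S3 of S2 aggregates after 1 more day in it, and S5 of day 1 S4 structures after 3 days in peri-implantation medium on Aggrewell plates. From the S2 and S3 medium 8Br-cAMP, Birabresib, CHIR-99021 or CD1530 was left out, 1 at a time, and from the S5 medium Activin A, BMP4, FGF4 or XAV 939. All lines carry the genotype label WT. Each group had 2 libraries, except EPSC with 4, of which libraries 1 and 2 belong to a first set of 12 libraries and 3 and 4 to a second set of 40. Each EPSC comparison used the pair of its own set. The labels do not say whether replicates came from separate cultures. The p-values rest on the spread between libraries of a group, shared over all groups in 1 fit. That spread may be technical. S4 and natural embryos were not analysed here.

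Tight junctions seal epithelial cells to each other below their apical surface. Claudins form the strands that set which ions pass between cells, occludin (Ocln), tricellulin (Marveld2) and Marveld3 are membrane-spanning partners in the strands, and F11r (JAM-A) is an adhesion molecule of the immunoglobulin family. ZO proteins (the Tjp genes) and cingulin (Cgn) are the cytoplasmic plaque that ties them to actin. Gap junctions are channels of connexins that let ions and small molecules pass from cell to cell. In the mouse embryo gap junctions appear at compaction, and the trophectoderm, the outer epithelium of the blastocyst, needs tight junctions to hold the fluid of the cavity. Connexins of the alpha class are named Gja, of the beta class Gjb and of the gamma class Gjc.

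Total counts per library ran between 16643188 and 108304781. In 46 libraries 66.8% to 80.5% of genes with low counts had an even count, against 40.7% to 42% in the 6 libraries of EPSC 3 and 4, P25 and P38, a difference the labels do not describe. mESC against EPSC, and S2 against P25, cross it, and its part in those results was not tested. No library stood apart by its leading gene, which held at most 1.7% of counts. In the first set of 12 libraries Cldn20 and Gja6 were never counted. The same held for 3756 of the 25056 tested genes, which could not be called in comparisons within that set. Shares, medians and marker counts there include these genes, among them the epiblast marker Sox2. The cause was not tested. In these bulk samples fewer cells of a type and less RNA per cell cannot be told apart.

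Promoters are shown for 3 genes that carry the main contrasts: Gjb2, the beta connexin that changed most in totipotency medium, Gjb5, a beta connexin with calls in many of the comparisons, and Cldn4, one of the most abundant claudins. RefSeq (build GRCm38.p6) gave promoters for 37 of the 51 genes, and the 250 bases before the start are printed 5′ to 3′ in the gene's direction. The Gjb2 window is chr14:57104703-57104952, the Gjb5 window chr4:127358165-127358414 and the Cldn4 window chr5:134946935-134947184, all on the minus strand. Capitals mark matches on either strand to any of 9 motifs.
Gjb2: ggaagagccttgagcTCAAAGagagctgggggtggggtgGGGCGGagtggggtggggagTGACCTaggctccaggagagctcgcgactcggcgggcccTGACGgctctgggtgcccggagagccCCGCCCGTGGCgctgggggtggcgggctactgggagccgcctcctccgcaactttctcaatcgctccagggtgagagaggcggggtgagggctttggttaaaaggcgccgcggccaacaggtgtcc
Gjb5: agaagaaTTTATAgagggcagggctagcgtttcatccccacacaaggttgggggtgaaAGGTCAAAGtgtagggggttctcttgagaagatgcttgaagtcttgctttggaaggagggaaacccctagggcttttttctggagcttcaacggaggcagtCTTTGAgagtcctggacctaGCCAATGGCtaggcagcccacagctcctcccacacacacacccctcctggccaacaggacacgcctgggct
Cldn4: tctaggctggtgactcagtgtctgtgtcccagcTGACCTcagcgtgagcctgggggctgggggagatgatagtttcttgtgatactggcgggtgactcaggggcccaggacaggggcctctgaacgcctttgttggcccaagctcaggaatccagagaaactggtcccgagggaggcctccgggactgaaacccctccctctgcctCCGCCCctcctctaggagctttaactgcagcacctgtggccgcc

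The motifs were searched on both strands, and the share of 32851 mouse promoters of this length that hold each is given beside it. The core of the cyclic AMP response element (CRE), spelled TGACG, was in 17.8% of promoters and in 13 of the 52 promoters of the junction genes. The full CRE, TGACGTCA, was in 1.55% of all promoters and in 2 of the 52. The core recognised by TCF/LEF factors of the Wnt pathway, CTTTGA, was in 13.8% of all promoters and in 7 of the 52. The core shared by many nuclear receptors, retinoic acid receptors among them, AGGTCA, was in 14% of all promoters and in 11 of the 52. The AP-2 motif GCCNNNGGC was in 13.7% of all promoters and in 8 of the 52. The GC box, GGGCGG, was in 32.7% of all promoters and in 24 of the 52. The TATA box, spelled as TATAAA, was in 12.4% of all promoters and in 7 of the 52. A GATA motif, searched as AGATAA, was in 9.99% of all promoters and in 4 of the 52. The Grainyhead-like motif AACCNGGTT was in 0.24% of all promoters and in 0 of the 52. The Gjb2 window held a CRE core at -152 to -148, a TCF/LEF core at -235 to -230, a nuclear receptor core at -191 to -186 and an AP-2 match at -124 to -116 that overlaps a GC box. The Gjb5 window held TCF/LEF cores at -189 to -184 and -91 to -86, the first of which overlaps a nuclear receptor core at -192 to -187. The Cldn4 window held a nuclear receptor core at -217 to -212 and a GC box at -44 to -39. The full CRE was found in the window of Cldn6, at -40 to -33 from the RefSeq start, in bases that GENCODE counts as exon. These matches describe letters and not bound sites.

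Across the series a few members made up most of the junction transcripts. Per kilobase of exon, the highest group means were those of Cldn6 (278 CPM per kb), Cldn4 (206) and F11r (119). The summed level of the claudins was 338 ± 43 CPM per kb in S1 cells against 130 ± 4.9 in EPSC 1 and 2 (SD, n = 2 each), and Cldn6 was the leading claudin in S1 while Cldn4 led in EPSCs. The connexins differed in the other direction, with 67.7 ± 0.37 CPM per kb in S1 cells and 99.9 ± 5.1 in EPSCs. The leading connexin also differed: Gjb2 held 42.7% of the connexin sum per kb in S1, and Gja1 held 32.7% in EPSC 1 and 2. EPSC pairs of the 2 sets were themselves apart for several members: Cldn6 averaged 80.5 ± 5.9 CPM in EPSC 1 and 2 and 28.9 ± 1.1 in EPSC 3 and 4.

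**Figure D1:**
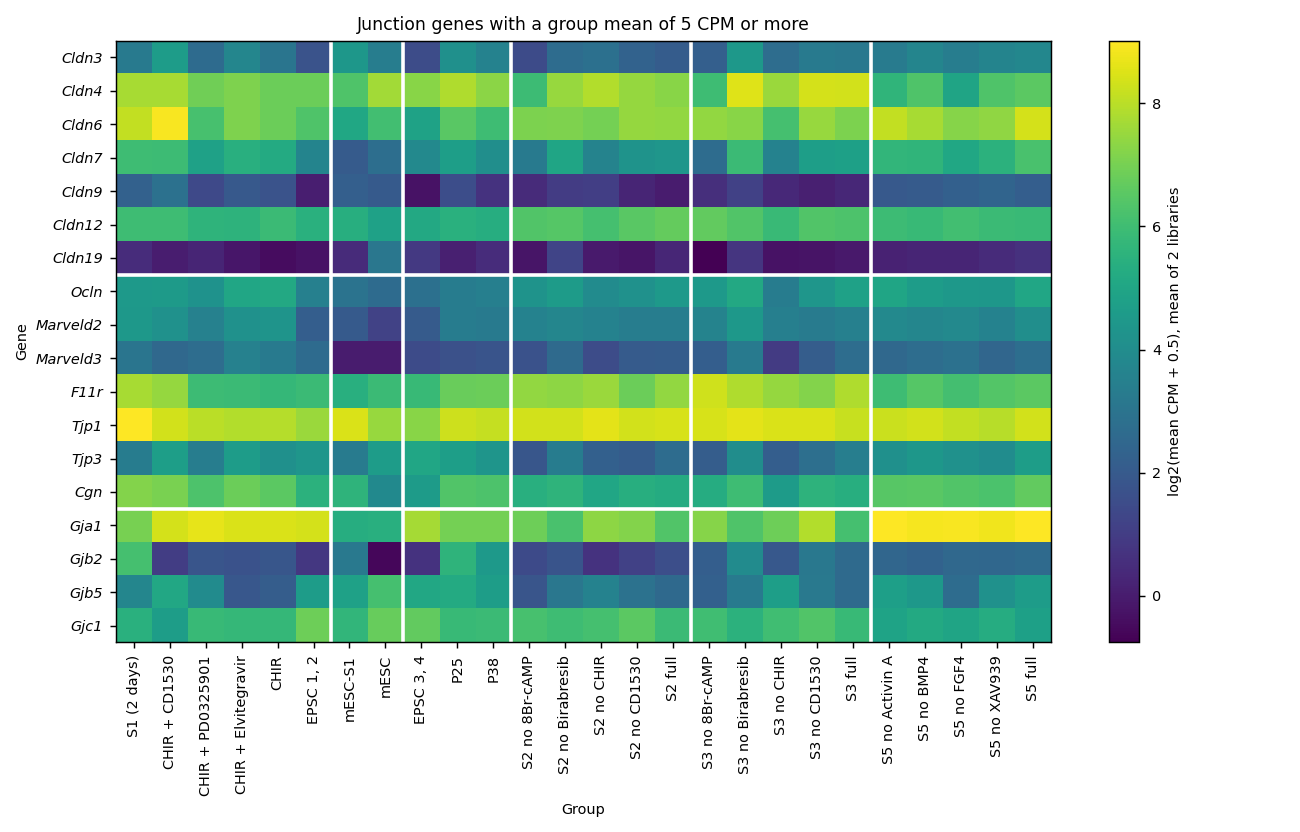
Mean level of 18 of the 21 junction genes with a group mean of 5 CPM or more (rows: claudins, then strand and plaque proteins, then connexins) in the 26 group means (columns), as log2(mean CPM + 0.5) of 2 libraries each. Gjb2 is bright in S1, P25 and P38, and Gja1 in the S5 groups.

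Several claudins were higher after 2 days in totipotency medium. Called genes have a Benjamini-Hochberg adjusted p below 0.05 in edgeR's quasi-likelihood test over 25056 genes and differ at least by a log2 fold change of 1 in size. In S1 cells against EPSCs 17 of the 41 tested junction genes rose and 6 fell, where 18.7% of all tested genes rose and 9.16% fell, and the median log2 fold change was 1.03 for the junction genes and 0 for all genes. Cldn6, a claudin of early embryonic epithelia, had 297 and 258 CPM in the S1 libraries and 76.3 and 84.7 in EPSCs, a log2 fold change of 1.78 (SE 0.20, adjusted p = 1.1e-09). Cldn7, a claudin of the lateral membrane, had 69.4 and 56.1 CPM in S1 and 12 and 12.1 in EPSCs (log2 2.38, SE 0.16, adjusted p = 1.7e-15). Both S1 libraries lay above both EPSC libraries for each of these genes. Cldn3, another sealing claudin, rose to 9.26 ± 1.1 CPM in S1, against 2.85 ± 0.58 in EPSCs (log2 1.70), and Cldn9, the gene next to Cldn6 on chromosome 17, to 4.33 ± 0.12, against 0.542 ± 0.14 (log2 3.00). Cldn4, a sealing claudin of epithelia, had 212 CPM in S1 and 113 in EPSCs, a log2 difference of 0.91 (adjusted p = 2.8e-08) that missed the fold threshold, although it reached 1.08 without S1 library 2. Cldn12 had 62.5 CPM in S1 and 43.7 in EPSCs and was not called. Cldn11 and Cldn18 had no count in EPSC 1 or 2 and stayed under 1 CPM in S1, which makes them at least 22.5-fold and at least 17.4-fold higher in S1 against a floor of 3 counts over the group.

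Of the 8 strand partners and plaque genes, 5 rose and 1 fell. Tricellulin (Marveld2) had 22.6 and 20.3 CPM in S1 and 3.53 and 4.46 in EPSCs (log2 2.43, SE 0.16, adjusted p = 1.9e-15), and Ocln averaged 22.2 ± 0.35 CPM in S1 and 10.8 ± 0.021 in EPSCs (log2 1.03). F11r had 224 and 201 CPM in S1 and 58.1 and 61.5 in EPSCs, a log2 fold change of 1.83 (SE 0.09, adjusted p = 1.3e-18). The S1 and EPSC libraries did not overlap for any of the 3. Of the plaque genes, Tjp1 (ZO-1) rose to 517 ± 26 CPM in S1, against 188 ± 0.30 in EPSCs (log2 1.46), and cingulin (Cgn) to 146 ± 17 CPM in S1, against 46 ± 0.53 in EPSCs (log2 1.67). Tjp3, an epithelial ZO protein, fell to 9.65 ± 0.13 CPM in S1, against 20.1 ± 1.9 in EPSCs (log2 -1.06, and -0.93 without EPSC library 1, under the threshold). Marveld3 had 7.66 CPM in S1 and 5.85 in EPSCs and was not called.

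The connexins split, with Gjb2 far above the rest. Gjb2, a beta connexin of many epithelia and of the inner ear, had 68.7 and 70.4 CPM in S1 and 1.33 and 1.21 in EPSCs, a log2 fold change of 5.77 (SE 0.27, adjusted p = 4.4e-20). Gja3, known from the lens, rose at a low level, to 2.5 ± 0.36 CPM in S1, against 0.384 ± 0.29 in EPSCs (log2 2.71). Among the connexins over 5 CPM in EPSCs, Gja1 and Gjc1 fell. Gja1, the most widely expressed connexin, had 128 and 132 CPM in S1 and 332 and 338 in EPSCs (log2 -1.36, SE 0.09, adjusted p = 2.5e-15). Gjc1, known from the early heart, had 43.4 and 42.6 CPM in S1 and 115 and 118 in EPSCs (log2 -1.44). Gjb5 had 12.7 CPM in S1 and 24.7 in EPSCs, and its log2 difference of -0.96 (adjusted p = 7.6e-07) stayed just under the threshold, which it passed without S1 library 1 (-1.01).

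**Figure D2:**
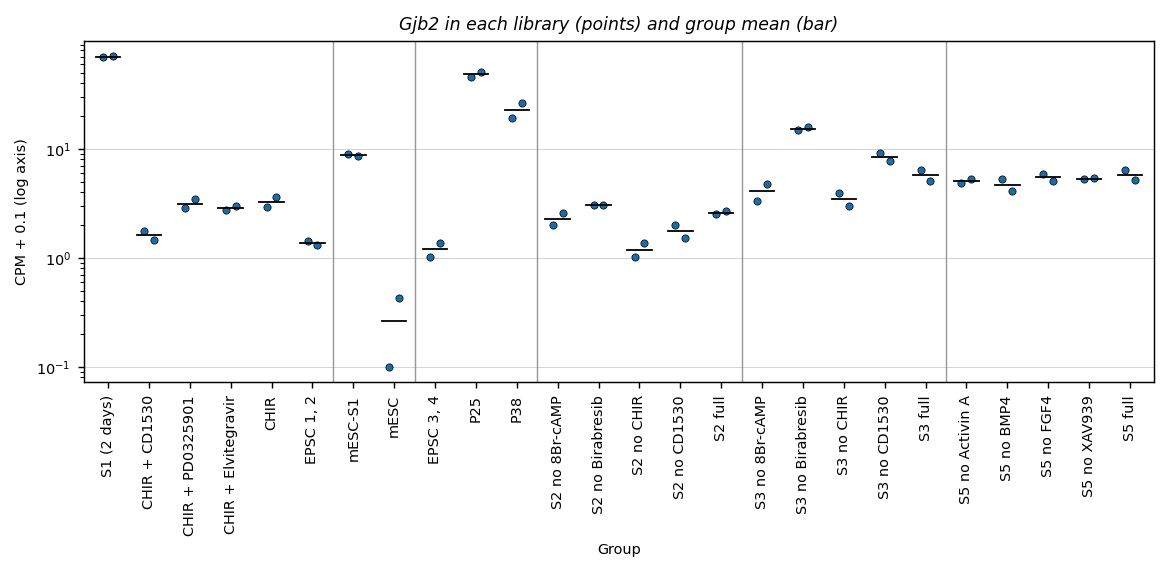
Gjb2 in each of the 52 libraries (points; CPM plus a small constant on a log axis) with the mean of each group (bar). The S1, P25 and P38 libraries sit between 19.2 and 70.4 CPM, above those of every other group.

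Other junction, polarity and regulator genes moved in both directions. Of 22 adherens junction and desmosome genes 4 rose and 1 fell in S1. The desmosomal Dsc2 rose (105 ± 0.21 CPM in S1, 1.47 ± 0.057 in EPSCs, log2 6.15), as did Dsp (147 ± 5.8 CPM in S1, 7.32 ± 0.37 in EPSCs, log2 4.33). Dsc3 had the largest fold change, at a low level (3.76 ± 0.18 CPM in S1, 0.0246 ± 0.035 in EPSCs, log2 7.16). Plakoglobin (Jup) fell (log2 -1.42). Of 36 tested polarity and junction partner genes 9 rose and 3 fell, among them the polarity scaffold Patj (log2 2.77) and the adhesion molecule Jam2 (log2 -2.46). Of 21 regulators of epithelial genes 6 rose and 4 fell: Gata3 rose (log2 4.75), and Klf5, Klf4 and Grhl2 fell (log2 -2.05, -3.29 and -1.86). The median log2 fold change was 0.45, 0.48 and 0.32 for these lists, against 0 for all genes. The summed level of the regulators was lower in S1 (310 to 312 CPM, against 764 to 810 in EPSCs). The adherens junction and desmosome genes summed to 3150 to 3270 CPM in S1 and 2440 to 2450 in EPSCs. The polarity and partner genes summed to 2470 to 2580 CPM in S1 and 2270 to 2300 in EPSCs.

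Markers of other cell types moved in the same comparison, and their part in the junction results was not tested. Of 12 trophectoderm markers 9 rose and 1 fell, and their summed level was 1170 to 1530 CPM in S1 and 111 to 125 in EPSCs, with the keratin Krt18 at 395 ± 87 CPM in S1 and 4.62 ± 0.50 in EPSCs. Of 16 endoderm markers 7 rose and 2 fell (1440 to 1620 CPM in S1, 603 to 640 in EPSCs), and of 12 epiblast markers 2 rose and 7 fell (175 to 178 in S1, 1660 to 1680 in EPSCs). All 7 tested markers of the 2-cell stage rose. They had no count in EPSC 1 or 2 and a summed level of 1210 to 1290 CPM in S1. Of 12 fibroblast markers, which would show feeder cells, 4 rose and 2 fell.

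Single agents and pairs were also given to EPSCs, for 2 days. CHIR-99021 is a GSK3 inhibitor that activates Wnt signalling. After 2 days with it, 14 of the 41 junction genes were higher and 5 lower than in EPSCs (11.7% and 6.99% of all genes rose and fell), with a median log2 fold change of 0.38. The labels name CHIR-99021 for the treated cells and LCDM medium for EPSCs. A change of base medium may thus be part of this comparison, and it was not tested. Marveld2 had 20.9 and 18.1 CPM with CHIR-99021 and 3.53 and 4.46 in EPSCs (log2 2.29). Ocln had 33.2 and 36.5 with it and 10.8 and 10.9 in EPSCs (log2 1.68). Cldn7 had 44.4 and 30 with it and 12 and 12.1 in EPSCs (log2 1.63). Cldn9 (log2 2.43), Gja3 (2.74), Cldn1 (3.24) and Gjb2 (1.30, at 3.17 ± 0.49 CPM with CHIR-99021 and 1.27 ± 0.088 in EPSCs) rose too, at under 4 CPM each. The beta connexin Gjb5 fell, with 3.77 and 3.87 CPM with CHIR-99021 and 23.5 and 25.8 in EPSCs (log2 -2.69). Gjc1 fell to 52.9 ± 4.5 CPM with CHIR-99021 (log2 -1.13). The CHIR-99021 libraries differed from each other, with Cldn6 at 151 and 78.2 CPM and Cldn3 at 10.9 and 4.5. Without CHIR-99021 library 1, Cgn (log2 1.04, then 0.68) and Cldn3 (1.46, then 0.61) dropped under the fold threshold and Cldn5 (1.68, then 1.05) under that of the test (adjusted p = 0.18). Cldn5 also lost its call without EPSC library 1 (adjusted p = 0.093), and Gja4 (log2 -1.17) lost it without CHIR-99021 library 2, EPSC library 1 or EPSC library 2 (adjusted p between 0.06 and 0.23). Among endoderm markers 10 of 16 rose (755 to 984 CPM in sum with CHIR-99021, 603 to 640 in EPSCs). Of 12 epiblast markers 4 rose and 6 fell (190 to 272 CPM with CHIR-99021, 1660 to 1680 in EPSCs). All 7 tested 2-cell markers rose (10 to 13.3 CPM with CHIR-99021, 0 in EPSCs). Of 12 trophectoderm markers 6 rose and 1 fell (107 to 148 CPM with CHIR-99021, 111 to 125 in EPSCs), and 7 of 12 fibroblast markers fell (89.8 to 97.7 CPM with CHIR-99021, 284 to 310 in EPSCs); their part was not tested.

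CD1530, which activates retinoic acid receptor gamma, was the addition to CHIR-99021 with the most called junction genes. Against CHIR-99021 alone 9 rose and 3 fell (9.74% and 6.91% of all genes), with a median log2 fold change of 0.45. Cldn6 had 494 and 462 CPM with CD1530, its highest level in the series, and 151 and 78.2 without it (log2 2.06, SE 0.20, adjusted p = 1.1e-10). F11r had 181 and 171 CPM with CD1530 and 59.7 and 47 without it (log2 1.72). Cldn3 had 24.9 and 23.9 with CD1530 and 10.9 and 4.5 without it (log2 1.63). Both CD1530 libraries lay above both CHIR-99021 libraries in all 3. Gjb5 rose too, with 36.3 and 32 CPM with CD1530 and 3.77 and 3.87 without it (log2 3.16). Gjb1 (2.87) and Gja4 (2.13) rose at about 2 CPM. Gjc1 fell to 25.1 ± 0.82 CPM (log2 -1.08), Cldn5 to 0.285 ± 0.054 (-3.09) and Gjb2 to 1.51 ± 0.22 (-1.06). Calls near the threshold depended on single libraries: Cldn9 (log2 1.25) had 0.98 without CHIR-99021 library 2, Gjc1 had -0.91 without CHIR-99021 library 1, and Gjb2 had -0.88 without CHIR-99021 library 2 and -0.91 without CD1530 library 2. Endoderm markers moved in the same comparison, at 12500 to 12700 CPM in sum with CD1530 and 755 to 984 without it, and 12 of 12 trophectoderm markers rose; their part was not tested.

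PD0325901, a MEK inhibitor, raised 3 junction genes over CHIR-99021 alone and lowered none (3.27% and 1.24% of all genes). Gjb5 had 13.6 and 16.2 CPM with PD0325901 and 3.77 and 3.87 without it (log2 1.96). Cldn19, also called, stayed under 1 CPM (log2 1.73), and its call was lost without CHIR-99021 library 1 (adjusted p = 0.24) or PD0325901 library 1 (0.35) and within its own family of groups (0.092). Cldn6 (log2 -0.67) and Tjp3 (-0.79) passed the thresholds as lower without CHIR-99021 library 2 (-1.07 and -1.13), which made 5 called genes, and without PD0325901 library 1 (-1.26 and -1.02). Among endoderm markers 13 of 16 fell (449 to 536 CPM in sum with PD0325901, 755 to 984 without it). All 7 tested 2-cell markers rose (89.8 to 120 CPM with PD0325901, 10 to 13.3 without it), and of 12 trophectoderm markers 6 rose and 1 fell (270 to 319 CPM with PD0325901, 107 to 148 without it), and their part was not tested. Elvitegravir, an inhibitor of HIV integrase, gave no call among the junction genes in edgeR or DESeq2 (0.00399% of all genes in each direction), and 4 of 41 had an unadjusted p below 0.05, or 9.76% against 18.1% of all genes. Without CHIR-99021 library 1, Cldn3 (log2 1.54) and Tjp3 (1.01) were called as higher with Elvitegravir.

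Gjb2 was far higher in S1 cells than in the CD1530 and PD0325901 arms. Against CHIR-99021 with CD1530, 2 genes were higher in S1 and 8 lower (7.78% and 3.51% of all genes). Gjb2 had 68.7 and 70.4 CPM in S1 and 1.67 and 1.36 with CHIR-99021 and CD1530 (log2 5.53), and Gjb1 (-5.59), Gjb5 (-1.43), Tjp3 (-1.42), Cldn3 (-1.40) and Gja1 (-1.38) were lower in S1. Against CHIR-99021 with PD0325901, 8 were higher in S1 and 3 lower (10.8% and 5.94% of all genes): Gjb2 (log2 4.55), Cldn6 (1.94), F11r (1.79), Cldn7 (1.16), Cldn9 (1.05) and Tjp1 (1.03) were higher, and Gja1 (-1.62) and Cldn5 (-1.90) lower. Of these, Cldn5 (adjusted p = 0.11) and Cldn9 lost their calls without PD0325901 library 1, Cldn7 without S1 library 1 (log2 0.99) and Tjp1 without S1 library 2 (0.97). These comparisons share the S1 libraries. Endoderm markers summed to 1440 to 1620 CPM in S1, 12500 to 12700 with CD1530 and 449 to 536 with PD0325901; 15 of 16 were lower in S1 than with CD1530, and 11 were higher than with PD0325901. Fibroblast markers summed to 405 to 420 CPM in S1, 148 to 153 with CD1530 and 136 to 185 with PD0325901, and 7 of 12 were higher in S1 than with CD1530 and 8 than with PD0325901; their part was not tested. F11r averaged 213 ± 16 CPM in S1, 176 ± 7.3 with CD1530, 61.1 ± 7.9 with PD0325901 and 59.8 ± 2.4 in EPSCs.

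In the ES line the same medium raised Gjb2 and lowered Cldn4. In mESC-S1 against mESC 9 of the 41 genes rose and 7 fell (14.2% and 8.26% of all genes), with a median log2 fold change of 0.23 against 0.04 for all genes. Gjb2 had 8.94 and 8.45 CPM in mESC-S1 and 0 and 0.326 in mESC (log2 5.60, SE 0.36, adjusted p = 1.6e-15). Cgn had 49.2 and 46.5 CPM in mESC-S1 and 15.2 and 12.9 in mESC (log2 1.77). Cldn3 had 20.5 and 20.6 in mESC-S1 and 9.7 and 10.3 in mESC (log2 1.04). Cldn11, without a count in mESC, was at least 24.1-fold higher in mESC-S1 at about 1 CPM. Cldn4 fell, with 80.9 and 77.6 CPM in mESC-S1 and 211 and 192 in mESC (log2 -1.34, SE 0.12, adjusted p = 7.8e-12). Cldn19, a claudin of kidney and nerve sheath, fell to 0.875 ± 0.15 CPM in mESC-S1, against 8.29 ± 0.42 in mESC (log2 -3.24). Tjp3 (log2 -1.40), Gjb5 (-1.33) and Gjc1 (-1.04) fell as well. Cldn3 had a log2 change of 0.99 without mESC library 1 and Gjc1 -0.99 without mESC library 2. Marveld2 (log2 1.02) had 0.72 without mESC library 2 and 0.90 without mESC-S1 library 1. With RLE factors Marveld2 (0.99) lost its call and Cldn6 was called (-1.02, adjusted p = 2.7e-05), and DESeq2 gave the same 2 changes (1.00 for Marveld2, under the threshold before rounding, and -1.02 for Cldn6). In edgeR with TMM scaling Tjp1 (0.97) and Cldn6 (-1, under the threshold before rounding) were not called. In this comparison 9 of 12 trophectoderm markers rose and 1 fell (399 to 408 CPM in sum in mESC-S1, 245 to 256 in mESC), and fibroblast markers summed to 1090 CPM in mESC-S1 and 2210 to 2320 in mESC; their part was not tested.

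The 2 responses differed for 14 of the 41 genes by a test of the difference itself. The signed log2 response was higher in the ES line for 5 and lower for 9 (8.7% and 9.97% of all genes). The sign of the difference does not say in which line the change was larger in size. Cldn7 had a response of -0.82 in the ES line and 2.38 in EPSCs, a difference of -3.20 (SE 0.24, adjusted p = 1.8e-13). Cldn6 differed by -2.78 (SE 0.28), F11r by -2.33 (SE 0.13), Cldn4 by -2.25 (SE 0.17) and Marveld2 by -1.41 (SE 0.25). For Gja1 the response was -0.08 in the ES line and -1.36 in EPSCs (difference 1.28). Gjb2 responded by 5.60 in the ES line and 5.77 in EPSCs, and the difference of -0.17 was not called; without mESC library 2, the one with Gjb2 counts, it was 5.76 (adjusted p = 0.013), a value that depends on the prior count because the other mESC library had no Gjb2 counts. The starting cultures differed too, in line and in medium (2i/L for mESC, LCDM for EPSCs), which cannot be told apart. In mESC against EPSC 3 and 4, 7 genes were higher and 7 lower (9.66% and 9.94% of all genes). Gja1 had 39.3 and 45.2 CPM in mESC and 210 and 210 in EPSCs (log2 -2.31), and Marveld3 (-2.24), Gjb2 (-2.62), Cldn7 (-1.11) and Marveld2 (-1.08) were lower. Cldn9 (3.43), Cldn19 (2.63), Cldn3 (2.08), Cldn6 (1.18) and Gjb5 (1.05) were higher in mESC. With all 4 EPSC libraries as the reference Cldn6 differed by 0.25 (adjusted p = 0.50). Cldn7 lost its call without mESC library 2 (-0.81) and Marveld2 without mESC library 2 (-0.78) or EPSC library 4 (-0.81), and without EPSC library 4 the count of called genes was 9. Fibroblast markers summed to 2210 to 2320 CPM in mESC and 751 to 765 in EPSC 3 and 4 (4 of 12 higher and 1 lower in mESC), and their part was not tested.

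**Figure D3:**
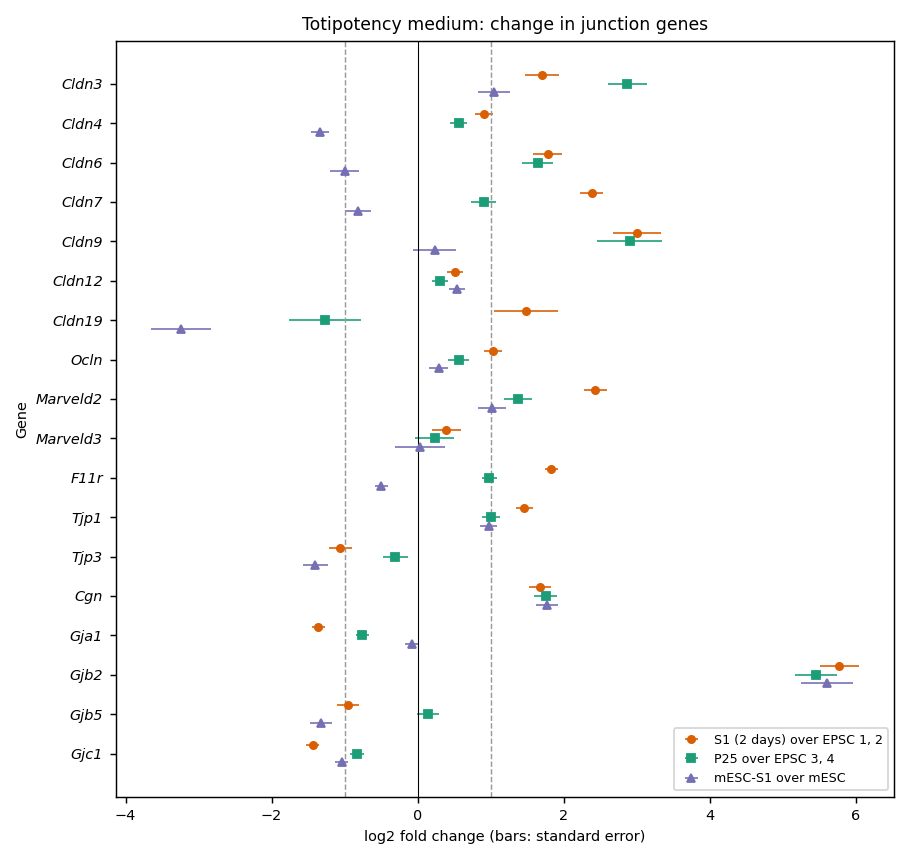
Log2 fold change (x axis; bars are standard errors) of the same 18 junction genes for S1 over EPSC 1 and 2, P25 over EPSC 3 and 4, and mESC-S1 over mESC; dashed lines mark the fold threshold. Gjb2 lies at 5.77, 5.45 and 5.60, Cgn at 1.67, 1.75 and 1.77, while Cldn6 lies at 1.78, 1.64 and -1.

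Gjb2 was high after 25 passages in totipotency medium too. In P25 against EPSC 3 and 4, 15 of the 41 genes rose and 1 fell (13.2% and 5.5% of all genes), with a median log2 fold change of 0.98 against 0.02 for all genes. Gjb2 had 45.7 and 50.7 CPM in P25 and 0.917 and 1.28 in EPSCs (log2 5.45, SE 0.29, adjusted p = 8.6e-18). Cldn3 had 16.2 and 18.3 CPM in P25 and 2 and 2.73 in EPSCs (log2 2.87). Cgn had 78.4 and 83.4 in P25 and 22.6 and 25.6 in EPSCs (log2 1.75). Cldn6 had 89.6 and 90.3 in P25 and 28.2 and 29.7 in EPSCs (log2 1.64). The P25 libraries lay above the EPSC libraries in each case. Marveld2 (1.37) and Tjp1 (1.00, at 306 ± 4.8 CPM) rose, as did Cldn9 (2.90) and Cldn1 (3.40) at under 3 CPM, and Cldn19 fell (-1.27). F11r averaged 111 CPM in P25 and 55.9 in EPSCs, a log2 difference of 0.98 under the threshold. Tjp1 dropped under the threshold without EPSC library 3 (0.88) or P25 library 2 (0.99) and with all 4 EPSC libraries (0.84), and with no low-count filter (1.00, under the threshold before rounding). Cldn19 lost its call without EPSC library 4 (adjusted p = 0.34) or P25 library 1 (0.33), with no low-count filter (0.11) and with all 4 EPSC libraries (0.51). Without EPSC library 4 the count of called genes was 8, all higher in P25. With all 4 EPSC libraries Cldn6 differed by 0.71, under the threshold. Of 12 trophectoderm markers 9 rose and 1 fell (1310 to 1370 CPM in sum in P25, 186 to 192 in EPSCs). All 7 tested 2-cell markers rose (234 to 240 CPM in P25, 0.16 to 0.162 in EPSCs). Of 12 epiblast markers 5 fell and none rose (1610 to 1620 CPM in P25, 3240 to 3280 in EPSCs). Of 16 endoderm markers 10 rose and 2 fell (1360 to 1380 CPM in P25, 930 to 960 in EPSCs). Of 12 fibroblast markers 3 rose and 1 fell (1470 to 1480 in P25, 751 to 765 in EPSCs), and their part was not tested.

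Between the passages 1 junction gene was called. Gjb2 had 19.2 and 26.3 CPM in P38 and 45.7 and 50.7 in P25 (log2 -1.08, SE 0.21, adjusted p = 0.002), where 0.0319% of all genes rose and 0.307% fell. Without P38 library 1 it was -0.87 (adjusted p = 0.13), so no gene was called. Cldn4 averaged 159 CPM in P38 and 230 in P25, and Cldn6 averaged 62 CPM in P38 and 89.9 in P25, without a call. DESeq2 also called Cldn9 (log2 -1.11, adjusted p = 0.036). The summed level of fibroblast markers was 550 to 906 CPM in P38 and 1470 to 1480 in P25, and its part was not tested.

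Gjb2 and Gjb5 were lower in S2 aggregates. In S2 against P25, 2 junction genes were higher and 14 lower (4.69% and 11.4% of all genes), with a median log2 fold change of -0.60; the passage of the S1 cells that were aggregated is not given, and S1 itself lies in the other library set. Gjb2 had 2.4 and 2.59 CPM in S2 and 45.7 and 50.7 in P25 (log2 -4.27, SE 0.25, adjusted p = 1.8e-16). Gjb5 had 4.92 and 5.94 CPM in S2 and 36.8 and 37.2 in P25 (log2 -2.77). The groups did not overlap for either gene. Cldn3 (-2.20), Tjp3 (-2.12), Cldn9 (-2.25), Cldn1 (-3.74) and Cgn (-1.08) were lower as well. Cldn12, a claudin without the usual plaque-binding tail, had 101 and 107 CPM in S2 and 43.8 and 42.7 in P25 (log2 1.27). Ocln had 23.4 and 22.4 in S2 and 9.11 and 10.4 in P25 (log2 1.23). Trophectoderm markers summed to 371 to 389 CPM in S2 and 1310 to 1370 in P25, fibroblast markers to 296 to 306 in S2 and 1470 to 1480 in P25, and their part was not tested.

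Cldn3 and Cldn4, both on chromosome 5, rose on the second day of aggregation. In S3 against S2 3 genes rose and none fell (1.9% and 3.37% of all genes). Cldn4 had 336 and 320 CPM in S3 and 156 and 150 in S2 (log2 1.10, SE 0.12, adjusted p = 1e-08). Cldn3 had 9.18 and 7.68 CPM in S3 and 3.81 and 3.69 in S2 (log2 1.17). Gjb2 had 6.35 and 4.91 in S3 and 2.4 and 2.59 in S2 (log2 1.17, and 0.97 without S3 library 1). For each of the 3 genes both S3 libraries lay above both S2 libraries. Of 16 endoderm markers 10 rose and none fell (1380 to 1450 CPM in sum in S3, 841 to 866 in S2), and their part was not tested.

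S5 had another set of junction genes than S3. In S5 against S3 15 rose and 6 fell (14.1% and 8.5% of all genes), with a median log2 fold change of 0.46. Gja1 had 475 and 556 CPM in S5 and 70.5 and 68.4 in S3, a log2 fold change of 2.89 (SE 0.10, adjusted p = 8e-24) and its highest level in the series. Cldn6 had 272 and 403 CPM in S5 and 141 and 128 in S3 (log2 1.33). Cldn7 had 63.5 and 85.2 in S5 and 27.3 and 26.8 in S3 (log2 1.46). Gjb5 had 29.8 and 19.1 in S5 and 6.03 and 5.4 in S3 (log2 2.10). The S5 libraries were apart from each other in these genes but above both S3 libraries. Cgn and Tjp3 rose by a log2 of 1.30 each, and Cldn9 (2.37), Gja3 (2.24), Cldn5 (2.38), Gjb1 (2.66) and Cldn1 (3.95) rose at under 5 CPM. Cldn4 had 103 and 86 CPM in S5 and 336 and 320 in S3 (log2 -1.80, SE 0.12, adjusted p = 3.7e-15). F11r had 92.2 and 93.5 in S5 and 235 and 223 in S3 (log2 -1.30). Gjc1 fell to 27.4 ± 4.3 CPM in S5, against 57.1 ± 5.4 in S3 (log2 -1.06). Gjc1 was under the threshold without S3 library 1 (-0.96) or S5 library 2 (-0.91), and Gja4 (-1.02) lost its call without S3 library 1 (-0.56), S5 library 1 (adjusted p = 0.08) or S5 library 2 (0.091). With the replicate block Gja4 was at -0.97, and it was at -0.98 with DESeq2, with RLE factors and within its own family of groups, each under the threshold. Of 16 endoderm markers 13 rose (6290 to 7700 CPM in sum in S5, 1380 to 1450 in S3), 5 of 7 tested endothelial and blood markers rose and 9 of 12 fibroblast markers fell, and their part was not tested.

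Without 8Br-cAMP, a cell-permeable analog of the second messenger cyclic AMP, Cldn4 and Cldn7 were lower on both days. Without it 4 junction genes fell in S2 and none rose (1.28% and 0.643% of all genes). In S3 8 fell and 1 rose (3.8% and 2.83%). Cldn4 had 61.4 and 60.1 CPM in S2 without 8Br-cAMP and 156 and 150 in S2 (log2 -1.33, SE 0.12, adjusted p = 6.7e-10). In S3 it had 60.2 and 64.8 CPM without 8Br-cAMP and 336 and 320 with it (log2 -2.39, SE 0.12, adjusted p = 4.6e-17), or 62.5 ± 3.2 against 328 ± 11 on average. Cldn7 had 9.18 and 9.23 CPM without it and 19.5 and 20.9 with it in S2 (log2 -1.13), and 5.88 and 6.14 without it and 27.3 and 26.8 with it in S3 (log2 -2.17). None of these groups overlapped. In S3 Tjp3 (-1.39), Gja4 (-1.82) and Cldn3 (-1.02) fell as well, while Gja1 had 149 and 156 CPM without 8Br-cAMP and 70.5 and 68.4 with it (log2 1.13). Cldn3 was under the threshold without S3 library 1 (-0.89) or library 2 of the omission (-0.99), and Gja4 lost its call without library 1 of the omission (adjusted p = 0.054). F11r averaged 318 CPM in S3 without 8Br-cAMP, its highest group mean, and 229 in S3, without a call. Of 21 regulators of epithelial genes 5 fell and 2 rose in S3 without 8Br-cAMP, with Elf3 among those that fell (log2 -2.20). Of 22 adherens junction and desmosome genes 3 fell and 3 rose, with N-cadherin (Cdh2) among those that rose (2.66). Of 16 endoderm markers 10 fell (670 to 677 CPM in sum without 8Br-cAMP, 1380 to 1450 in S3) and 5 of 12 trophectoderm markers fell and 1 rose (287 to 310 CPM without 8Br-cAMP, 577 to 604 in S3), and their part was not tested.

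**Figure D4:**
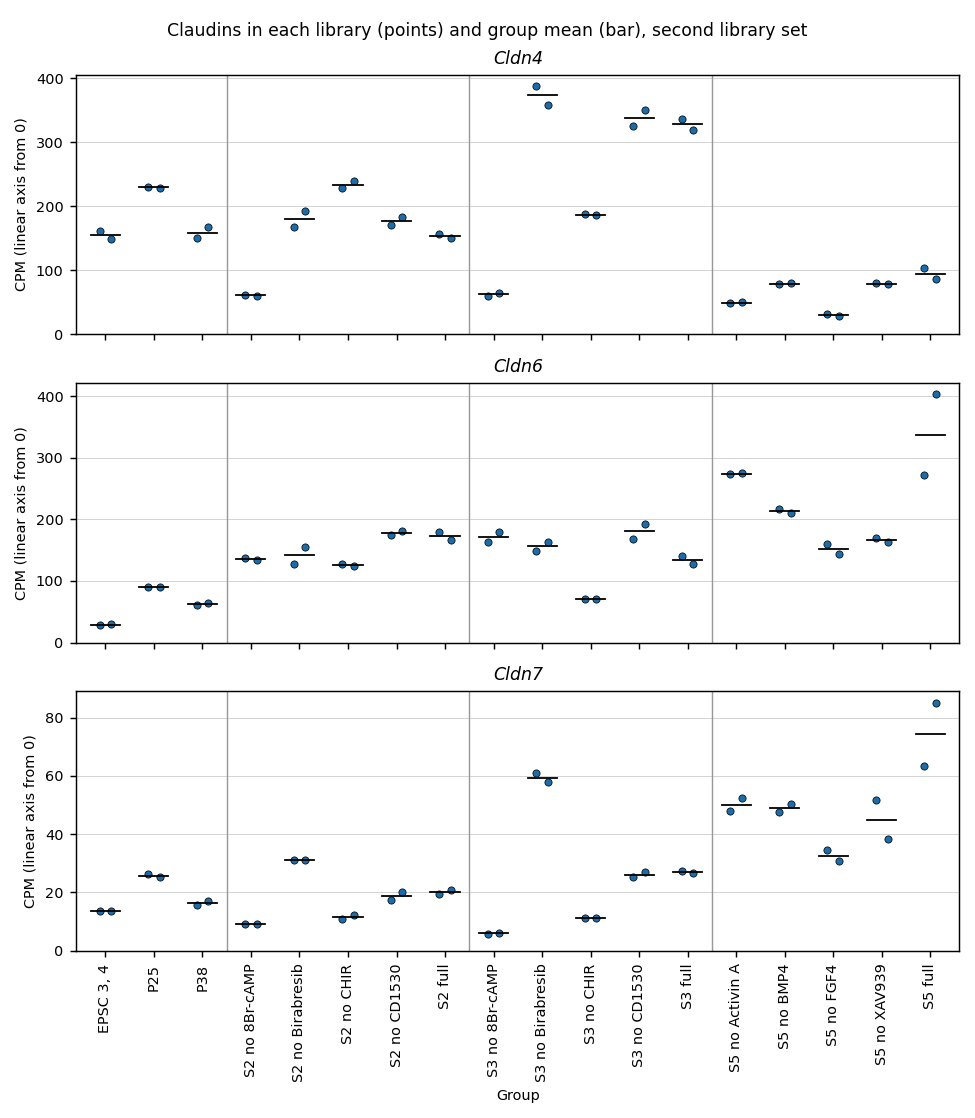
Cldn4, Cldn6 and Cldn7 in each library of the EPSC-derived groups of the second set (points, CPM on a linear axis from 0; bars are group means). Within its stage Cldn4 is lowest where 8Br-cAMP was left out in S2 and S3 (60.1 to 64.8 CPM) and where FGF4 was left out in S5 (29 and 31.5 CPM).

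When Birabresib, an inhibitor of BET bromodomain proteins, was left out, all called junction genes were higher. In S2 3 rose and none fell (2.85% and 0.128% of all genes), and in S3 7 rose and none fell (5.75% and 0.459%). Gjb2 had 14.8 and 15.6 CPM in S3 without Birabresib and 6.35 and 4.91 in S3 (log2 1.43, SE 0.22, adjusted p = 9.4e-06). Cldn7 had 60.9 and 58 CPM without it and 27.3 and 26.8 in S3 (log2 1.13). Cldn3 had 20.6 and 22.4 without it and 9.18 and 7.68 in S3 (log2 1.35). The libraries without Birabresib were above the S3 libraries in all 3. Gjb1 (2.35), Cldn19 (1.37) and Cldn9 (1.14) rose at under 2 CPM. In S2 the called genes were Gjb1 (2.03), Cldn9 (1.54) and Cldn19 (1.39), each under 2 CPM. No gene stayed called in S2 without S2 library 2 or without library 1 of the omission, and in S3 without S3 library 2, 4 did. In S3 Cldn9 lost its call without S3 library 2 or library 1 of the omission (adjusted p = 0.22 and 0.067), and Cldn19 without either S3 library or library 1 of the omission (0.13, 0.11 and 0.21) and with no low-count filter or within its own family of groups (0.065 each). In S2 Cldn19 lost its call in both of these settings (0.077 with no filter, 0.051 within its family), and Gjb1 within its family (0.054). All 7 tested 2-cell markers rose in S3 without Birabresib (71 to 72.7 CPM in sum, against 10.2 to 10.8 in S3), and 4 of 12 trophectoderm markers (1060 to 1070 CPM without Birabresib, 577 to 604 in S3), and their part was not tested.

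Leaving out CHIR-99021 raised Gjb5 on both days and lowered Ocln and Marveld3 in S3. In S2 6 junction genes rose and 1 fell (2.86% and 2.22% of all genes), and in S3 4 rose and 4 fell (5.04% and 4.11%). Gjb5 had 12.4 and 10.4 CPM without CHIR-99021 and 4.92 and 5.94 with it in S2 (log2 1.07), and 25.7 and 26.7 without it and 6.03 and 5.4 with it in S3 (log2 2.20, SE 0.16, adjusted p = 1.4e-13). Gja1 had 162 and 167 CPM in S2 without CHIR-99021 and 80.5 and 83.2 in S2 (log2 1.01), Cldn9 rose (1.63) and Gjb2 fell (-1.20). In S3 Ocln had 8.71 and 10.5 CPM without CHIR-99021 and 26.9 and 28.6 with it (log2 -1.53, SE 0.12, adjusted p = 1.5e-12). Marveld3 had 1.11 and 1.75 without it and 6.42 and 5.92 with it (log2 -2.11). Tjp3 had 3.78 and 4.09 without it and 10.1 and 10.4 with it (log2 -1.38). Cldn7 had 11.3 and 11.3 without it and 27.3 and 26.8 with it (log2 -1.26). The groups of these 4 genes did not overlap. Marveld2 averaged 10.6 CPM in S3 without CHIR-99021 and 10.9 in S3 and was not called. Several calls near the threshold depended on 1 library. In S2 these were Gja1 (0.98 without S2 library 1, 0.99 without library 2 of the omission), Gjb5 (0.94 without S2 library 1, 0.92 without library 1 of the omission) and Gjb2 (-0.99 without library 1 of the omission). In S3 without CHIR-99021 13 of 16 endoderm markers rose (4200 to 4240 CPM in sum, against 1380 to 1450 in S3) and 5 of 12 trophectoderm markers rose and 1 fell, and their part was not tested.

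Without CD1530 Gja1 was higher in S3. It had 233 and 237 CPM without CD1530 and 70.5 and 68.4 in S3 (log2 1.76, SE 0.09, adjusted p = 2.9e-16), where 1.97% of all genes rose and 3.82% fell. The other called gene, Gja3, fell at under 1 CPM (log2 -2.47), and without library 2 of the omission Gja1 was the one gene left. F11r averaged 147 CPM without CD1530 and 229 in S3, without a call. In S2 no junction gene was called without CD1530 by edgeR or DESeq2 (0.718% and 1.61% of all genes), and 11 of 41 had an unadjusted p below 0.05, or 26.8% against 18.1% of all genes. Gja1 averaged 146 CPM there, against 81.8 in S2. In S3 without CD1530 5 of 12 trophectoderm markers rose (1020 to 1060 CPM in sum without CD1530, 577 to 604 in S3). Of 12 epiblast markers 5 rose (2210 to 2270 CPM without CD1530, 1590 to 1700 in S3), 4 of 12 fibroblast markers fell (92.9 to 99.6 CPM without CD1530, 203 to 225 in S3), and their part was not tested.

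S5 without FGF4, a growth factor of the epiblast that acts on trophoblast, had lower Gjb5 and lower claudins. Without FGF4 7 junction genes fell and none rose (2.53% and 2.12% of all genes), with a median log2 fold change of -0.14. Gjb5 had 6.45 and 5.42 CPM without FGF4 and 29.8 and 19.1 in S5 (log2 -2.04). Cldn4 had 31.5 and 29 CPM without FGF4 and 103 and 86 in S5 (log2 -1.64, SE 0.12, adjusted p = 1.3e-12). Cldn7 had 34.7 and 30.7 without FGF4 and 63.5 and 85.2 in S5 (log2 -1.18). Cldn6 had 160 and 144 without FGF4 and 272 and 403 in S5 (log2 -1.15). These 4 genes were lower in both libraries without FGF4 than in both S5 libraries. Gjb1 (log2 -1.95) fell, under 3 CPM. Gja1 averaged 490 CPM without FGF4 and 516 in S5 and was not called. S5 library 2 had the higher Cldn6 and Cldn7, and without it Cldn6 (-0.84), Cldn7 (-0.96) and Gjb1 (adjusted p = 0.071) were not called, which left 4 genes. Gjb1 also lost its call without library 1 of the omission (adjusted p = 0.08). Of 21 regulators of epithelial genes 7 fell and none rose, among them Klf5 (log2 -2.29), Klf4 (-2.49) and Tfap2c (-1.76). Of 16 endoderm markers 15 fell (1660 to 1840 CPM in sum without FGF4, 6290 to 7700 in S5) and of 12 trophectoderm markers 9 fell (285 to 294 CPM without FGF4, 710 to 836 in S5), and their part was not tested.

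The other S5 factors gave 1 call among the junction genes. Without XAV 939, a tankyrase inhibitor that dampens Wnt signalling, Cldn6 had 170 and 163 CPM, against 272 and 403 in S5 (log2 -1.02, adjusted p = 0.00043; 1.13% and 1.01% of all genes rose and fell). The call was lost without S5 library 2 (-0.71, adjusted p = 0.082) or library 2 of the omission (-0.99), and with the replicate block (-0.99). The libraries without XAV 939 differed from each other, with Tjp1 at 188 and 315 CPM, against 323 and 332 in S5. Among endoderm markers 7 of 16 fell (2880 to 4520 CPM in sum without XAV 939, 6290 to 7700 in S5) and all 7 tested 2-cell markers rose (234 to 238 CPM without XAV 939, 85.7 to 89.3 in S5), and their part was not tested. Without Activin A no gene was called by edgeR or DESeq2 (0.407% and 0.714% of all genes), and 7 of 41 had an unadjusted p below 0.05, or 17.1% against 11.9% of all genes. Cldn4 averaged 49.5 CPM without Activin A and 94.3 in S5 and was called without S5 library 2 (log2 -1.05). Without BMP4 no gene was called by either tool (0.016% and 0.0399% of all genes), and 8 of 41 had an unadjusted p below 0.05, or 19.5% against 8.94% of all genes.

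**Figure D5:**
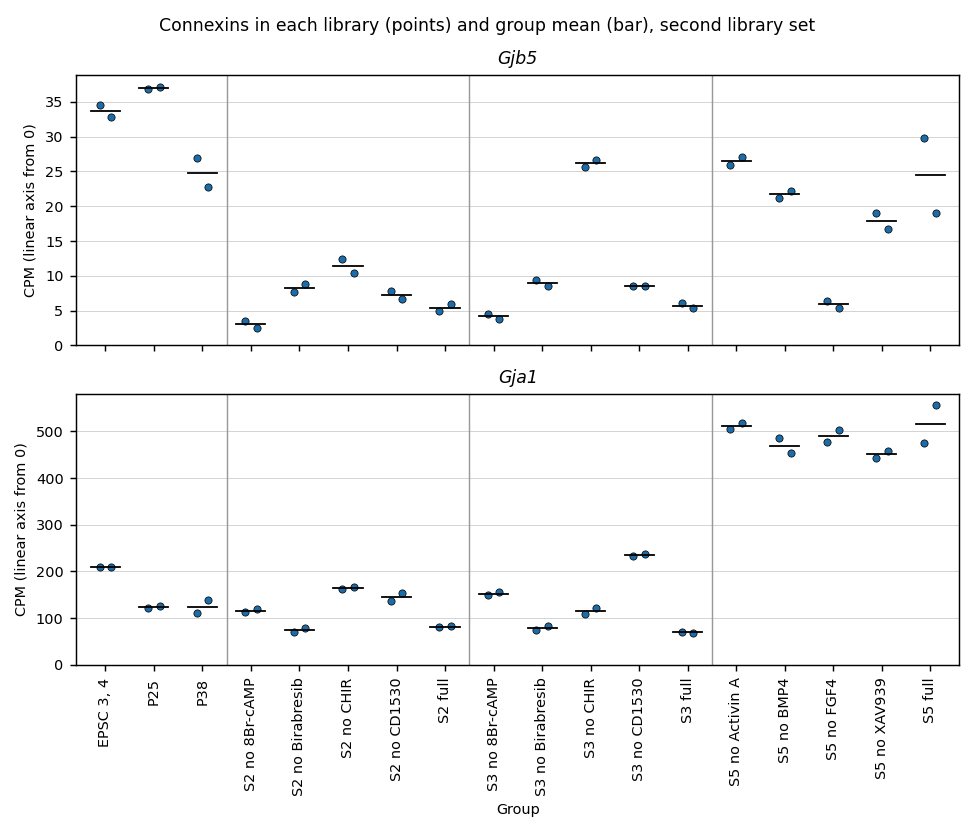
Gjb5 and Gja1 in each library of the EPSC-derived groups of the second set (points, CPM on a linear axis from 0; bars are group means). Within its stage the Gjb5 mean is lowest without 8Br-cAMP in S2 (3.02 CPM) and S3 (4.19 CPM) and without FGF4 in S5 (5.93 CPM), and in S2 and S3 it is highest without CHIR-99021 (11.4 and 26.2 CPM), while Gja1 is at 444 CPM or more in all S5 groups.

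Position in the genome, which the rule did not use, was close for several of the genes (build mm10, GENCODE). Ocln (100496507 to 100552718) and Marveld2 (100595957 to 100616971) are close on chromosome 13 and had a Pearson's r of 0.86 over the 26 group means, as log2 levels, given as a description, since the groups share lines, media and library sets. Cldn6 (23679249 to 23682446) and Cldn9 (23682584 to 23684026) face each other on chromosome 17, and Cldn3 and Cldn4 lie on chromosome 5. Gjb2 (57098600 to 57104702) lies on chromosome 14 between Gja3 (57034460 to 57058100) and Gjb6 (57123303 to 57133611); Gja3 reached at most 2.55 CPM and Gjb6 0.427 CPM as a group mean, against 69.5 CPM for Gjb2.

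The genes with the most similar pattern over the 26 group means were Mettl7a1 (r = 0.837) and Lpar2 (0.836) for Cldn6, Emp2 (0.832) and Mvp (0.794) for Cldn4, and Hoxb8 (0.923) and Ip6k2 (0.922) for F11r. Cldn6, Cldn4 and F11r were taken as the 3 junction genes with the highest group mean per kilobase.

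The remaining members were low. Of the 41 tested genes 20 stayed under 5 CPM in every group. The highest of these were Gja4 at 4.94 CPM in mESC, a vascular connexin, and Cldn5 at 3.53 CPM with CHIR-99021 and Elvitegravir, the main claudin of endothelium. Cldn2, a pore-forming claudin, had no count in S3 and 0.62 ± 0.25 CPM in S5, at least 18.2-fold higher in S5, and reached 1.85 CPM without Activin A. Cldn17 and Cldn22 had no count in any library. Cldn22 lies wholly within Wwc2 on the opposite strand, and no source used here gives the strand setting of the counting.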

How the data were processed

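Per the labels' protocols, RNA was extracted with RNeasy kits, selected with oligo-dT beads, primed at random and sequenced as read pairs on HiSeq 2500. The submitters' processing notes name Trimmomatic 0.39, STAR 2.7.10b, featureCounts 2.0.6 and the build mm10. The annotation, strand setting and handling of mates are not stated in any source used here. Raw counts for each gene in 52 libraries were deposited by the authors, with totals between 16643188 and 108304781.

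The counts were tested with edgeR 4.0.16 (R 4.3.3; filterByExpr with a minimum count of 10, TMM scaling, quasi-likelihood F test) in 1 fit over all groups, with Benjamini-Hochberg adjustment over 25056 of 55291 genes. A standard error is the absolute log2 fold change divided by the square root of F. CPM used TMM-scaled totals. A group at 0 was set to a floor of 3 counts over the group, which covers counting error only, and only if each read pair added 1 count. Most low counts were even in 46 libraries and the handling of mates is not stated, so these fold bounds may be too high. Alternatives were DESeq2 1.42.0, RLE factors, no filter, each family of groups alone, all 4 EPSC libraries, a replicate block and leaving out each library, the last 2 with the dispersion trend held. On simulated counts for S1 against EPSC, all 50 genes changed 4-fold in each direction were called, 23 and 22 of 50 at 2-fold, and 1 of 24244 unchanged genes. These counts were drawn with the dispersion trend of the fit, the same for all groups. They therefore do not show how often unchanged genes are called in groups with a wider spread.

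The members, lists and tests were chosen with earlier results of these data known. Called members averaging at least 1 CPM in either group of a comparison were named, up to 10 in each direction, and other genes named below that level were chosen after their values were seen. Results for 4 of the members are not reported here one by one, but counts, medians and sums over the members include them. No 2 replicates agreed within sampling noise (lowest chi-square per degree of freedom 2.33). The value was highest for CHIR-99021 alone (110), CHIR-99021 with PD0325901 (90.4) and S5 without XAV 939 (65.1). For these groups the shared spread, and so the standard errors, may be too small.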

Additional observations from a re-analysis of the deposited data

Results flagged for a closer look

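The response to totipotency medium was tested for a difference between the ES line (mESC-S1 over mESC) and EPSCs (S1 over EPSC 1 and 2), and 9 junction genes are listed for which that difference passed the test. Each value is the log2 response of the ES line minus that of EPSCs. The claudins with a lower signed response in the ES line were Cldn19 (-4.71), Cldn7 (-3.20), Cldn6 (-2.78), Cldn9 (-2.77) and Cldn4 (-2.25). F11r (-2.33) and Marveld2 (-1.41) were lower as well. Gja3 (5.52) and Gja1 (1.28) had a higher signed response in the ES line, where Gja1 was at -0.08, against -1.36 in EPSCs. Gja3 had no count in mESC, so its value is not a bound, and its adjusted p of 0.027 was 0.13 without EPSC library 2, 0.1 without mESC library 1 and 0.14 without mESC library 2. The lines were in separate library sets with their own reference, and the references grew in different media (2i/L for mESC, LCDM for EPSCs). Line, set and starting medium therefore cannot be told apart. No explanation of these differences was tested.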

How the results depend on the processing

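Counts of called junction genes moved by over 1.5 times in the following cases, where a range gives the lowest and highest count when each library was left out. The count for CHIR-99021 with Elvitegravir was 0 (0 to 2), with PD0325901 3 (2 to 5), for mESC against EPSC 14 (9 to 11), for P25 against EPSC 16 (8 to 13) and for P38 against P25 1 (0 to 1, and 2 in DESeq2). Without Birabresib it was 3 in S2 (0 to 2, and 1 within its own family of groups) and 7 in S3 (4 to 7). Without CD1530 in S3 it was 2 (1 to 2, and 4 within its own family). In S5 it was 0 without Activin A (0 to 1), 7 without FGF4 (4 to 6) and 1 without XAV 939 (0 to 1). The cause was not tested. The response difference of Gjb2 reversed without mESC library 2, where it was 5.76 against -0.17 with all libraries, since the remaining mESC library had no Gjb2 count, and it was -1.05 without mESC library 1.

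No label says that replicate numbers pair the samples. The correlation of same-numbered deviations was 0.43 for CHIR-99021 with PD0325901 against CHIR-99021, over 0.1 in this 1 of 24 comparisons, and at or above -0.03 in the others. Each comparison has 2 pairs, so the numbers were not taken as pairs. With the replicate block the count without XAV 939 in S5 was 0, and the count stayed within 1.5 times in 23 of 24 comparisons. With no low-count filter and with RLE factors it did so in 27 of 27, with DESeq2 in 26 of 27, and with all 4 EPSC libraries in 4 of 4.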
